A study of Rattus norvegicus with 6 samples.

Results

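The glucocorticoid response genes examined here were 10 rat genes, namely the receptors Nr3c1 and Nr3c2, the steroid-converting enzymes Hsd11b1 and Hsd11b2, and the hormone-induced genes Fkbp5, Tsc22d3, Zbtb16, Sgk1, Errfi1 and Rasd1. Members were taken from the transcript table by gene symbol, out of 21655 named genes with 70376 transcripts in all. The symbol was found for 9 of the 10. Nr3c1 was not listed under its own symbol, and its locus carried the name AABR07031756.1 with a description that gives the NCBI gene number of Nr3c1, 24413, so that locus was used. Together the 10 genes held 44 transcripts, of which 16 were annotated and 28 were assembled from the reads.

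Lungs came from Sprague-Dawley rats that were 7 weeks old at the start. PF model (pulmonary fibrosis) rats received bleomycin, a DNA-damaging drug that injures the lung, as 1 intratracheal instillation of 7 mg/kg, and control rats received saline, and lungs were taken on day 28. Total RNA depleted of ribosomal RNA was sequenced in 3 control and 3 PF model libraries. The labels name no transgene and no steroid treatment, and they do not state whether a library is 1 animal or a pool. The paper lists 3 PF model rat and 3 control libraries and mentions no pool. The p-values below set the difference between groups against the spread between these libraries.

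Levels are FPKM, fragments per kilobase of transcript scaled to the depth of the library, summed over the transcripts of a gene. Reads assigned to transcripts, estimated from coverage, came to 35778631 to 41112682 a library, which is not the full sequencing depth. Whole lung was recovered in every library, with 6 lung epithelial markers (among them Sftpc and Scgb1a1) summing to 9920 to 12928 FPKM. The 6 matrix markers of fibrosis (Col1a1, Col1a2, Col3a1, Fn1, Acta2 and Timp1) summed to 368 to 433 FPKM in control lungs and to 417, 442 and 563 FPKM in PF model lungs. PF model replicate 3 stood apart from the other libraries. It had the highest level of 5 of those 6 matrix markers, and 4 cardiac muscle markers (Myh6, Nppa, Tnnt2 and Myl7) summed to 11.8 FPKM there against 0.553 to 0.888 FPKM in the other 5 libraries. Myh6, a cardiac myosin heavy chain, stood at 5.11 FPKM there and was listed at 0 in the 3 control libraries and PF model replicate 1. Nppa was not raised there, at 0.150 FPKM against 0.167 and 0.154 FPKM in PF model replicates 1 and 2. Summed markers of other cells overlapped between the groups for leukocytes (57.0 to 70.8 FPKM in control, 42.0 to 61.5 FPKM in PF model), endothelium (215 to 330 and 263 to 300.0), erythroid cells (2051 to 2774 and 2323 to 3618), mesothelium (4.66 to 9.10 and 5.29 to 11.1) and skeletal muscle (0.162 to 0.279 and 0.241 to 0.563), and were low but separate for adipose tissue (0.625 to 0.707 and 0.959 to 1.604). Within the leukocyte sums, Cd68 stood at 1.30 FPKM in control replicate 3 and 1.21 FPKM in PF model replicate 2. Elsewhere it stood at 20.7 to 22.8 FPKM. The part of these markers in the results below was not tested. For the 10 genes, results that rest on that library are given with and without it.

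Glucocorticoids such as corticosterone, the main one in rats, enter cells and bind the glucocorticoid receptor, which is held by chaperones in the cytoplasm. The bound receptor moves to the nucleus and switches genes on or off, in part by binding DNA elements built from paired short half-sites. In the lung this hormone drives late maturation, restrains inflammation and is used as a drug. Enzymes in the target cell raise or lower the active steroid before it meets the receptor, and several of the induced genes, Fkbp5 among them, feed back on the receptor.

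Of the 10 genes, Rasd1 alone met the call rule for the PF model against control comparison, and it was lower in PF model lungs. A gene was called where limma on log2(FPKM + 1) gave it a p at or below 0.05 before adjustment and its mean FPKM differed between groups by a log2 ratio of 1 or more in either direction. By that rule 298 of 19645 genes tested, 1.52%, were called, with 130 higher and 168 lower, so 1 called gene among 10 was read against that background. When libraries were scaled to TPM (FPKM rescaled to the same total in every library), the split over all genes was 196 higher and 141 lower. Rasd1 was also the only member whose groups did not overlap, which held for 10.7% of all genes tested. No member passed at a Benjamini-Hochberg adjusted p below 0.05 in limma, where 0.0102% of genes passed, and 2 of the 10 (Rasd1 and Fkbp5) had an unadjusted p of at most 0.05, against 4.91% of all genes tested.

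**Figure D1:**
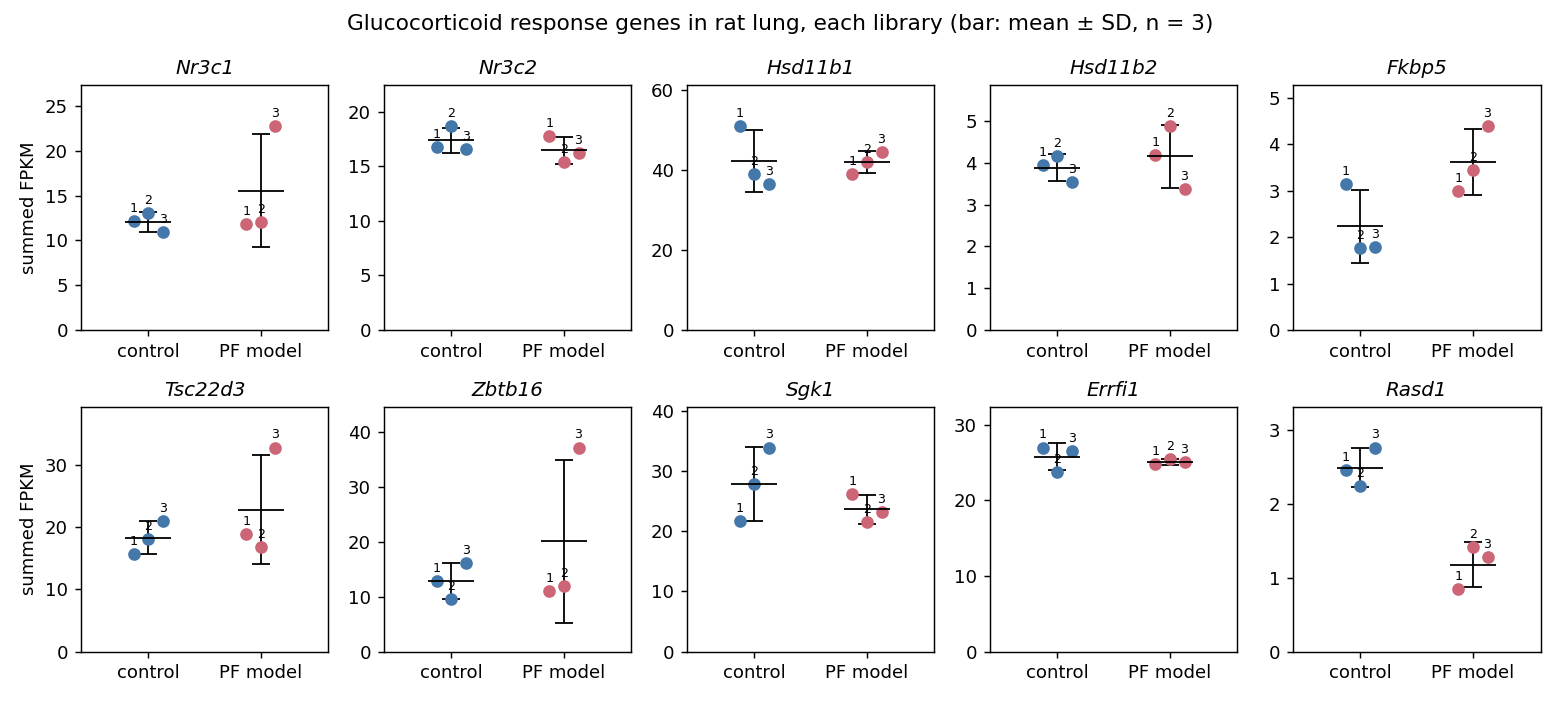
Summed FPKM (vertical axis, starting at 0) of each of the 10 genes in each library, with points numbered by replicate and with the mean ± SD of 3 libraries in black. The 3 Rasd1 points of the PF model, 0.843 to 1.42 FPKM, lie below the 3 control points, and PF model replicate 3 lies above every other library for Nr3c1, Fkbp5, Tsc22d3 and Zbtb16.

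Rasd1 encodes a small Ras-family GTPase that was first described as a transcript induced by dexamethasone, a synthetic glucocorticoid. It was measured at 2.47, 2.25 and 2.77 FPKM in control lungs and at 0.843, 1.42 and 1.28 FPKM in PF model lungs. All 3 PF model values lay below all 3 control values. The means were 2.49 ± 0.261 (SD, n = 3) and 1.18 ± 0.301 FPKM (SD, n = 3), a log2 ratio of −1.08. On the log2(FPKM + 1) scale, which understates the change of low genes, the fold change in limma was −0.69 ± 0.15 (SE), with a 95% interval from −1.04 to −0.34 and an adjusted p of 0.933. The unadjusted limma p = 0.00276 stands beside p = 0.1 from a two-sided exact permutation test, the smallest that 3 against 3 libraries allow. In bulk tissue, fewer cells that express a gene and less RNA per cell cannot be told apart.

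Over the 6 libraries the mean level of Rasd1 was the lowest of the 10 genes, although in control lungs that of Fkbp5 was lower. Its single annotated transcript (chromosome 10, 46330368 to 46332172 on the minus strand in the table's coordinates, 2 exons, 1668 bases) was backed by an estimated 160 to 226 reads in control and 68 to 104 reads in PF model libraries. No assembled or intronic transcript shared the symbol, so its value did not depend on how reads were divided between isoforms. Rasd1 is on the study's own list of differential mRNAs, which was drawn up from these libraries, so its direction here is not independent evidence. The paper also reports qRT-PCR of Rasd1 on the sequenced RNA, with a pattern it describes as similar. The oligos it lists for that are given at the end.

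The fold of Rasd1 lay close to the threshold. The call was lost with TPM scaling, where the log2 ratio was −0.9998, without control replicate 3 (−0.9972) and without PF model replicate 1 (−0.886). The p before adjustment stayed at or below 0.05 in those 3 fits and in the other 14 alternatives over genes. Their fold changes lay on the same side, and the adjusted p ranged from 0.819 to 0.99996. The highest p before adjustment, 0.0472, came from an F test with library size as a covariate. In that F test over transcripts, the single Rasd1 transcript was not called. Without PF model replicate 3 the log2 ratio was −1.14.

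**Figure D2:**
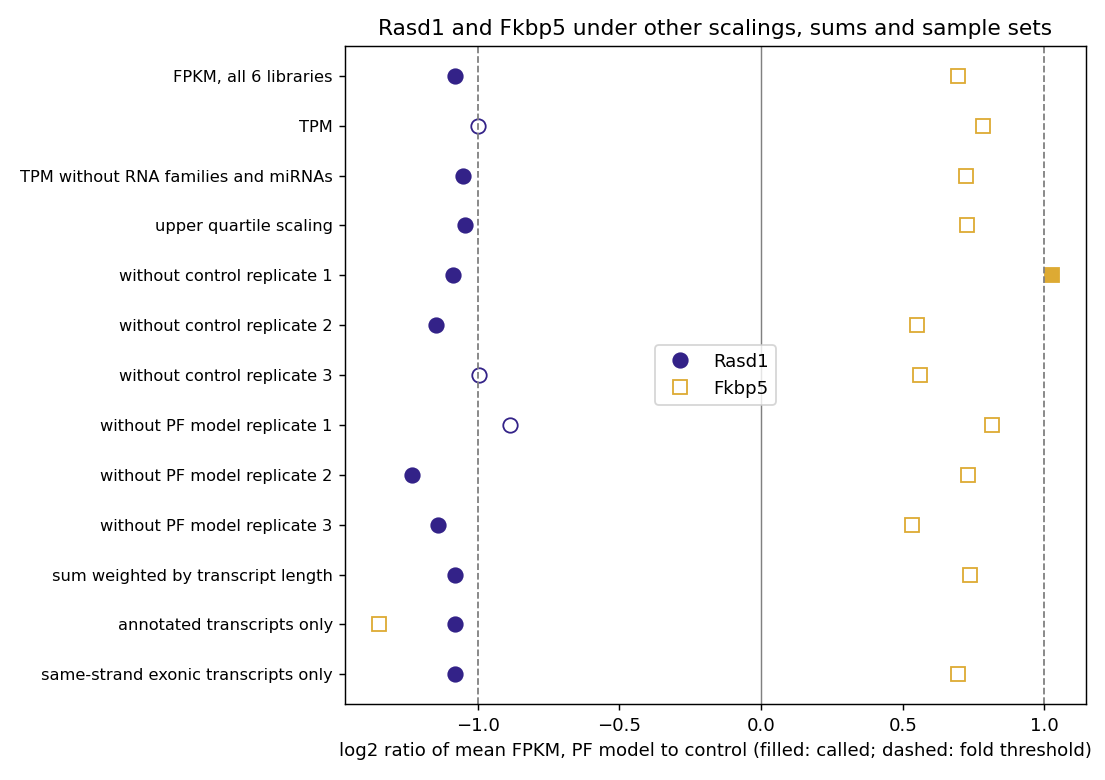
Log2 ratio of mean FPKM, PF model to control (horizontal axis), for Rasd1 (circles) and Fkbp5 (squares) under other scalings, other sums over transcripts and with each library left out, with filled symbols where the call rule was met and dashed lines at the fold threshold. Rasd1 stays on the lower side, between −1.23 and −0.89, while Fkbp5 crosses zero when annotated transcripts alone are summed (−1.35).

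The 250 bases before the start of Rasd1 are shown because it was the called member, beside the one window among the members that held a glucocorticoid receptor element core. Windows were taken from RefSeq on GRCr8, a build not used for the coordinates of the expression table, and 6 of the 10 members had at least 1 window (11 windows of 300 bases in all, from 250 bases before to 50 after a start). The core searched was ACANNNTGT, which reads the same on both strands, and the half-site searched was AGAACA on either strand, whose last 3 letters can overlap the core. Capitals mark a match.
Rasd1: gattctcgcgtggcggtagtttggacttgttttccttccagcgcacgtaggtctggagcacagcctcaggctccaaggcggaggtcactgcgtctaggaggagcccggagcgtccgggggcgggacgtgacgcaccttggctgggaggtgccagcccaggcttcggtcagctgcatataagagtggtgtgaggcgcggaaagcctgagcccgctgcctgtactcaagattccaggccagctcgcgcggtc
Tsc22d3: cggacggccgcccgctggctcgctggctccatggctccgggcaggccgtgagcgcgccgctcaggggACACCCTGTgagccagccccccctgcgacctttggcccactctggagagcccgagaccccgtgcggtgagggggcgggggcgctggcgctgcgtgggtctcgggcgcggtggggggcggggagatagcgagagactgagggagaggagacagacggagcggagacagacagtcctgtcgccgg

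The Rasd1 stretch is chr10:45267683-45267932 on the minus strand and holds neither motif. The Tsc22d3 stretch is chrX:109065431-109065680 on the minus strand and belongs to 1 of its 3 starts, with the core at position −183 from that start. The core was present in 1 of the 11 member windows and in 6.86% of 33469 windows of all genes, and the half-site was present in 0 of 11 and in 20.7% of all. A match is a run of letters, not a measured binding site, and these windows leave out distant elements.

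Both receptors were present at levels that did not pass the test. Nr3c2, the mineralocorticoid receptor, which also binds corticosterone, was measured at 16.8, 18.7 and 16.6 FPKM in control and 17.8, 15.3 and 16.2 FPKM in PF model lungs. The groups overlapped, and the log2 fold change was −0.07 with a 95% interval from −0.29 to 0.14 (limma adjusted p = 0.944, exact permutation p = 0.4). Its annotated transcript held 49.8% of the summed FPKM, and 3 assembled transcripts that lie inside its introns, 2 of them on the plus strand, opposite to the gene, held most of the rest. Of the shares of 10% or more, MSTRG.17638.1 inside an intron held 15.6%, MSTRG.17637.1, which overlaps an exon, 13.1%, and MSTRG.17640.1 inside an intron 11.96%, and none of their groups separated.

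Nr3c1, the glucocorticoid receptor itself, was measured at 12.2, 13.1 and 10.9 FPKM in control and 11.8, 11.997 and 22.8 FPKM in PF model lungs. Only PF model replicate 3 was outside the control range, at 1.74 times the next highest library. The log2 fold change was 0.28 ± 0.25 (SE, limma adjusted p = 0.933, exact permutation p = 0.7), and without that library it was −0.01. The annotated transcript of 5078 bases (ENSRNOT00000044287) accounted for 93.9% of the locus in that library and for 9.53 to 26.4% in the other 5. It stood at 21.4 FPKM there against 1.16 to 3.45 FPKM elsewhere, while the longest assembled form, MSTRG.16596.2 of 37316 bases, stood at 0.17 FPKM there against 2.24 to 4.62 FPKM. MSTRG.16596.5 (0.79 against 2.002 to 2.84 FPKM) and MSTRG.16596.3 (listed at 0 there, 1.42 to 2.57 FPKM elsewhere) were lowest in it too.

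The summed FPKM and the estimated reads over the whole Nr3c1 locus pointed in different directions. The estimated reads over the locus were lowest in PF model replicate 3, at 5945, against 8558 to 12070 in the other 5 libraries. Those of the annotated transcript were highest there, at 5000 against 273 to 747. Those of the 4 assembled transcripts together were lowest there, at 944 against 7949 to 11796. FPKM divides by transcript length, and a sum over isoforms grows when reads are assigned to a shorter one. Why the reads were divided in this way was not tested. With transcripts weighted by length the log2 fold change of Nr3c1 was −0.12 (limma adjusted p = 0.964), the opposite sign to the plain sum.

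Hsd11b1, the enzyme that regenerates active corticosterone from its inactive form, was the most abundant member, at 51.0, 38.9 and 36.4 FPKM in control and 39.0, 42.0 and 44.5 FPKM in PF model lungs. The groups overlapped fully, with a log2 fold change of 0.00 and a 95% interval from −0.32 to 0.33 (limma adjusted p = 0.99995, exact permutation p = 0.9). Its isoforms were divided differently in PF model replicate 3, where the assembled transcript MSTRG.10782.2 held 88.9% of the gene against 44.5 to 58.8% in the other 5 libraries, and the annotated ENSRNOT00000007870 stood at 4.94 FPKM against 17.7 to 21.0 FPKM.

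Hsd11b2, which inactivates corticosterone and shields the mineralocorticoid receptor from it, was measured at 3.95, 4.17 and 3.53 FPKM in control and 4.19, 4.89 and 3.38 FPKM in PF model lungs. Its lowest and highest values were both in PF model lungs, and the log2 fold change was 0.07 with a 95% interval from −0.28 to 0.42 (limma adjusted p = 0.97, exact permutation p = 0.6). Its main transcript ENSRNOT00000023130 held 69.4% of the gene, at 2.47 to 3.21 FPKM, and the short ENSRNOT00000093093 held 25.9%, at 0.40 to 1.51 FPKM. The level of Hsd11b1 was above that of Hsd11b2 in every library, 36.4 to 51.0 against 3.38 to 4.89 FPKM.

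**Figure D3:**
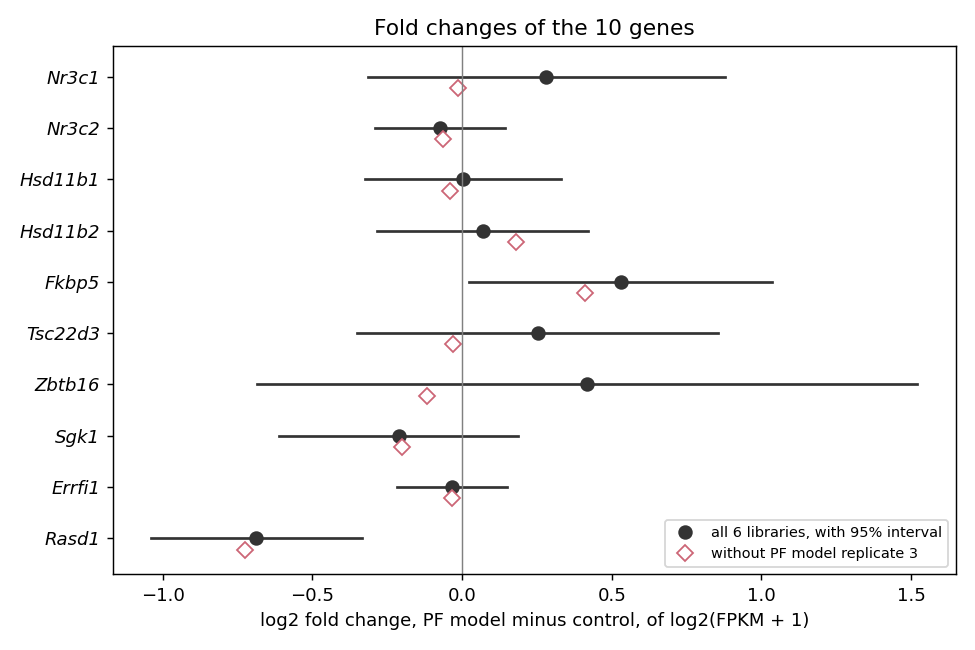
Log2 fold change (PF model minus control, on log2(FPKM + 1), horizontal axis) of the 10 genes in limma with its 95% interval in black, and the same without PF model replicate 3 as open diamonds. The intervals of Rasd1 and Fkbp5 leave out 0, and the values of Nr3c1, Tsc22d3 and Zbtb16 move from 0.28, 0.25 and 0.42 to −0.01, −0.03 and −0.12 without that library.

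Among the induced genes, Fkbp5 was higher in PF model lungs at an unadjusted p but did not meet the fold. Its product is a co-chaperone that lowers hormone binding by the receptor. It was measured at 3.15, 1.76 and 1.80 FPKM in control and 3.00, 3.46 and 4.40 FPKM in PF model lungs. Control replicate 1 lay within the PF model range and the other two controls lay below it. The means were 2.23 ± 0.791 and 3.62 ± 0.715 FPKM (SD, n = 3 each), with a log2 fold change of 0.53 ± 0.21 (SE, limma p = 0.0426, adjusted p = 0.933, exact permutation p = 0.2) and a log2 ratio of means of 0.70.

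The result for Fkbp5 turned on single libraries and on the setting of the fit. Without control replicate 1 the call rule was met, at a log2 ratio of 1.03. The p before adjustment missed 0.05 without control replicate 2, control replicate 3, PF model replicate 2 or PF model replicate 3, where the log2 fold change was 0.43, 0.44, 0.55 and 0.41. It also missed 0.05 with library size as a covariate, with the replicate block and with annotated transcripts alone. The log2 fold change there was 0.39, 0.53 and −0.30.

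Fkbp5 reads were assigned to 1 of 2 transcripts in an almost all-or-none way. The annotated ENSRNOT00000033119 (chromosome 20, 7976713 to 8019020, minus strand, 10 exons) held 98.8% of the gene in control replicate 1 and 27.8% in PF model replicate 3, and less than 1% in the other 4 libraries. The assembled MSTRG.21535.1, which ends at the same base and starts further upstream, at 8035477, held the rest and was called higher (0.04, 1.76 and 1.79 FPKM in control against 3.00, 3.46 and 3.18 FPKM in PF model lungs, limma adjusted p = 0.945). The call was lost in 7 alternative fits. Without control replicate 1, in which the reads were given to the other transcript, its log2 ratio was 0.86 and under the threshold. The p before adjustment missed 0.05 without PF model replicate 1, without PF model replicate 2, without PF model replicate 3, with a pseudocount of 0.1, with TPM computed without RNA families and miRNAs, and with library size as a covariate.

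Tsc22d3 encodes GILZ, a leucine zipper protein that carries part of the anti-inflammatory action of the hormone. It was measured at 15.7, 18.1 and 21.0 FPKM in control and 18.8, 16.8 and 32.7 FPKM in PF model lungs. PF model replicate 3 was 1.56 times the next highest library and the other two PF model libraries lay within the control range. The log2 fold change was 0.25 ± 0.25 (SE, limma adjusted p = 0.934, exact permutation p = 0.6) and −0.03 without that library. Its annotated transcript of 1937 bases, ENSRNOT00000085118, had the same pattern, with 19.6 FPKM in that library against 7.01 to 10.4 FPKM, and the estimated reads of the gene, 3456 there against 1708 to 2443, did too. The assembled MSTRG.38809.3, which held 17.2%, was between 1.56 and 5.86 FPKM with overlapping groups.

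Zbtb16 encodes PLZF, a zinc finger transcription factor and one of the most responsive glucocorticoid targets in many cells. It was measured at 12.8, 9.50 and 16.2 FPKM in control and 11.1, 11.9 and 37.1 FPKM in PF model lungs. PF model replicate 3 was 2.29 times the next highest library, the largest such ratio of the 10 genes, and the rest overlapped. The log2 fold change was 0.42 ± 0.46 (SE, limma adjusted p = 0.942, exact permutation p = 0.7) and −0.12 without that library. Both the annotated transcript (11.4 FPKM there against 3.54 to 5.58) and 3 assembled transcripts inside its introns, on the same strand, were highest there, with MSTRG.34704.1 at 8.30 FPKM against 0.49 to 3.02 FPKM, MSTRG.34703.1 at 6.99 against 1.24 to 2.41 FPKM and MSTRG.34702.1 at 6.88 against 1.73 to 3.06 FPKM. MSTRG.34699.1, just downstream of the gene, differed less (3.49 against 1.62 to 3.22 FPKM). Of the summed FPKM of Zbtb16, the annotated transcript held 36.3%, the 3 inside introns 48.2% and MSTRG.34699.1 15.2%.

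**Figure D4:**
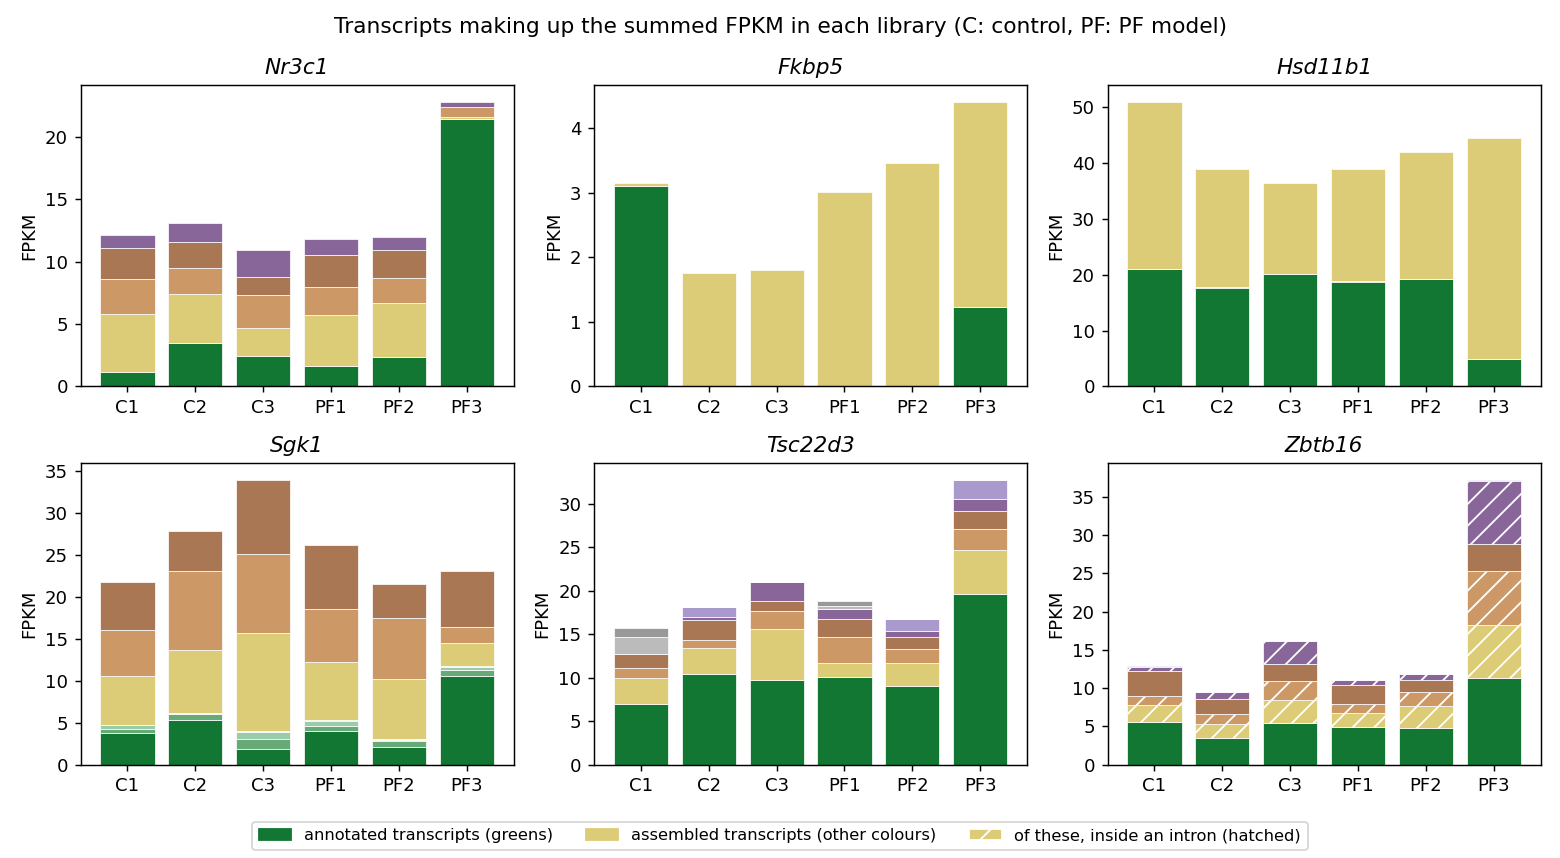
FPKM of each transcript, stacked, for 6 of the genes in each library (C1 to C3 control, PF1 to PF3 PF model), with annotated transcripts in greens, assembled ones in other colours and those inside introns hatched. The Nr3c1 bar of PF3 is almost all annotated transcript (93.9%), the Fkbp5 bar of C1 is annotated where C2, C3, PF1 and PF2 are assembled, and every kind of Zbtb16 transcript that is drawn large is highest in PF3.

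By summed FPKM, PF model replicate 3 was the highest library for 4 of the 10 members (Nr3c1, Fkbp5, Tsc22d3 and Zbtb16). It was the highest for 23.6% of all genes tested. For Nr3c1 the estimated reads over the locus were lowest in that library, at 5945, and those of its annotated transcript were highest, as given above. The same library carried the cardiac muscle and matrix marker levels given above. Their part in these 4 values was not tested.

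Sgk1, a kinase that raises sodium channel activity and answers to both receptors, was measured at 21.8, 27.9 and 33.9 FPKM in control and 26.2, 21.5 and 23.2 FPKM in PF model lungs. Control replicate 1 lay within the PF model range, while control replicates 2 and 3 lay above it. The log2 fold change was −0.21 with a 95% interval from −0.61 to 0.19 (limma adjusted p = 0.933, exact permutation p = 0.4). Over 17 alternatives it ran from −0.37 to 0.21, and the p before adjustment was at most 0.05 in 1 of them. Of its 7 transcripts, the annotated ENSRNOT00000016121 stood at 10.6 FPKM in PF model replicate 3 against 1.86 to 5.36 FPKM in the other libraries, while the assembled MSTRG.389.4 and MSTRG.389.3 were lowest there, at 2.78 and 1.95 FPKM. MSTRG.389.2 lay between 4.05 and 8.83 FPKM, with that library at 6.69 FPKM.

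Errfi1 (also called Mig6), an inhibitor of the EGF receptor that is induced by glucocorticoids in lung epithelium, was measured at 27.0, 23.7 and 26.6 FPKM in control and 24.7, 25.5 and 25.0 FPKM in PF model lungs. It had the narrowest interval of the 10 genes, with a log2 fold change of −0.03 and a 95% interval from −0.22 to 0.15 (limma adjusted p = 0.973, exact permutation p = 0.6). Of the summed level, 43.6% came from MSTRG.29570.1, a transcript of 1 exon and 5992 bases on the minus strand inside an intron of the gene, which lies on the plus strand. The annotated transcript alone, ENSRNOT00000085315, stood at 9.79, 10.9 and 8.92 FPKM in control and 11.9, 10.9 and 11.7 FPKM in PF model lungs. The groups did not overlap, though control replicate 2 (10.91 FPKM) and PF model replicate 2 (10.92 FPKM) were nearly equal, with a log2 fold change of 0.21 (limma adjusted p = 0.945).

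Ranked by mean FPKM over the 6 libraries, Hsd11b1 (42.0) stood first and its range did not overlap that of Sgk1, the next, although Zbtb16 reached 37.1 FPKM in PF model replicate 3. Sgk1 (25.7), Errfi1 (25.4), Tsc22d3 (20.5), Nr3c2 (16.9), Zbtb16 (16.4) and Nr3c1 (13.8) followed, and each of these overlapped the next in its range over libraries. A gap separated Nr3c1 from Hsd11b2 (4.02), Fkbp5 (2.93) and Rasd1 (1.84), which again overlapped their neighbours. The order holds for the summed FPKM only. Transcripts inside introns held 43.6% of that sum for Errfi1, 37.1% for Nr3c2 and 48.2% for Zbtb16. For Nr3c1, 60.8% of the sum came from 4 assembled transcripts of 10701 to 37316 bases, where the annotated one has 5078 bases.

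At the level of transcripts, 3 of the 42 that could be tested were called, against 2.98% of 64867 transcripts tested in all, and 0 passed at an adjusted p below 0.05 in limma, against 0.0277%. The unadjusted p was at most 0.05 for 3 of the 42, against 4.53% of all transcripts. Groups did not overlap for 4, against 10.4% of all transcripts. Another 2 assembled Tsc22d3 transcripts were above 0 in fewer than 3 libraries and were not tested. The called transcripts were that of Rasd1, MSTRG.21535.1 of Fkbp5 and ENSRNOT00000092794 of Hsd11b2. The last was at 0.01, 0.10 and 0 FPKM in control and 0.43, 0.17 and 0.43 FPKM in PF model lungs (limma adjusted p = 0.945), at an estimated 0 to 37.1 reads a library, and it starts 1 base from the main Hsd11b2 transcript and ends at the same base, so the 2 share nearly all of their reads.

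Other genes of the pathway were examined as 7 lists with 77 genes, of which 71 were found by symbol and 70 were tested. None of the 70 was called and none passed at an adjusted p below 0.05 in limma, and 2 had an unadjusted p of at most 0.05, against 4.91% of all genes tested. Groups did not overlap for 3 induced targets, given below, and in the other lists for Icam1, Ncoa1, Kcnj1 and Gnai3. Of the latter, Icam1 was higher in PF model lungs and the rest were lower. Groups did not overlap for 10.7% of all genes tested. The median log2 fold change over all genes was −0.01.

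The 24 induced targets had a median log2 fold change of −0.02, with 10 above 0 and 14 below. The lowest p values belonged to Glul, glutamine synthetase (26.2 ± 7.05 FPKM in control and 38.2 ± 3.29 in PF model lungs, SD, n = 3 each, limma adjusted p = 0.933), and to Ddit4, an inhibitor of mTORC1 signalling (7.90 ± 1.33 and 10.8 ± 1.33 FPKM, limma adjusted p = 0.933). Hif3a, a hypoxia-inducible factor subunit, followed at 0.146 ± 0.0977 and 0.0395 ± 0.0372 FPKM (limma adjusted p = 0.933). Groups did not overlap for these 3 of the 24, with Glul and Ddit4 at higher and Hif3a at lower values in PF model lungs, against 10.7% of all genes tested. The p before adjustment was at most 0.05 for Glul and Ddit4. For Glul it missed 0.05 without control replicate 1, without control replicate 2, without PF model replicate 3 and with sums weighted by transcript length. For Ddit4 it missed 0.05 without control replicate 1, without control replicate 2, without PF model replicate 2, without PF model replicate 3 and with annotated transcripts alone.

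**Figure D5:**
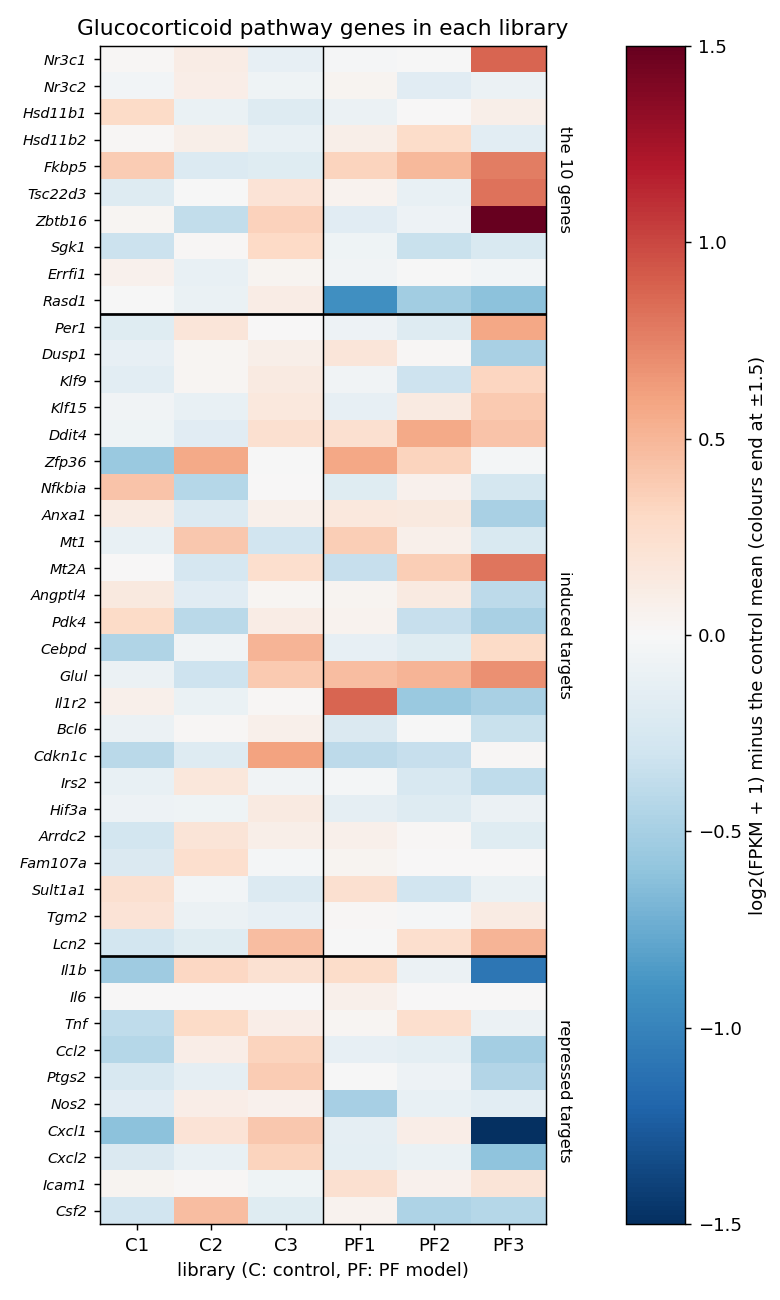
Log2(FPKM + 1) of each gene minus its control mean (colour, red above and blue below, ending at ±1.5) in each library (columns, C control and PF PF model), for the 10 genes, the 24 induced targets and the 10 repressed targets. The PF columns show no shared colour over the induced targets, whose medians are 0.02, 0.01 and −0.06, and the largest departures of the members are those of Zbtb16 in PF3 and Rasd1 in PF1.

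The repressed targets, cytokine and inflammatory genes that the hormone turns down, had a median log2 fold change of −0.26 over the 9 tested, with 2 above 0 and 7 below. Without PF model replicate 3 the median was −0.04. Icam1, a leukocyte adhesion molecule, had the lowest p, at 69.2 ± 2.82 FPKM in control and 77.8 ± 4.86 FPKM in PF model lungs (limma adjusted p = 0.933), followed by Nos2, an inducible nitric oxide synthase (0.816 and 0.528 FPKM), and Cxcl2, a chemokine (0.626 and 0.332 FPKM), at the same adjusted p. Cxcl1, a neutrophil chemokine named after its values were seen, stood at 10.4, 19.0 and 22.1 FPKM in control and 14.9, 17.6 and 4.73 FPKM in PF model lungs. Its lowest value was in PF model replicate 3, as was that of Il1b (4.51 FPKM against 7.04 to 13.5 FPKM).

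The 10 chaperones and co-chaperones of the receptor complex had a median log2 fold change of 0.02. The lowest p values were those of Ptges3, the p23 co-chaperone (14.5 ± 1.59 and 12.1 ± 1.27 FPKM, limma adjusted p = 0.933), Dnaja1, an Hsp40 co-chaperone (12.2 ± 1.27 and 9.38 ± 2.78 FPKM), and Hsp90aa1, an Hsp90 chaperone (10.8 ± 2.46 and 8.08 ± 3.03 FPKM). PF model replicate 3 was the lowest library for Dnaja1 (11.1, 10.8 and 6.17 FPKM in PF model lungs) and for Hsp90aa1 (9.87, 9.80 and 4.58 FPKM). Without it the log2 fold change of Dnaja1 went from −0.38 to −0.13 and that of Hsp90aa1 from −0.43 to −0.11. The 9 coregulators found had a median of −0.04, led by Ncoa1, a coactivator of nuclear receptors (49.9 ± 0.781 and 45.4 ± 2.81 FPKM, limma adjusted p = 0.933), the corepressor Ncor1 (38.9 and 35.6 FPKM) and the chromatin remodeller Smarca4 (12.8 and 13.6 FPKM). Of the 8 genes of steroid supply and carriage 4 were found, and Abcb1b, a steroid exporter, had the lowest p among them (26.5 ± 4.11 and 22.5 ± 8.66 FPKM, limma adjusted p = 0.934), before Srd5a1, a steroid reductase (2.58 and 3.01 FPKM), and Mc2r, the ACTH receptor (1.11 and 0.998 FPKM). Abcb1b stood at 15.0, 20.4 and 32.0 FPKM in PF model lungs, and without PF model replicate 3 its log2 fold change went from −0.28 to −0.56, with a p before adjustment that passed 0.05. For the 8 mineralocorticoid effectors the median was 0.00 to 2 decimals, and the lowest p belonged to Kcnj1, a potassium channel (0.0778 and 0.027 FPKM), and Scnn1g, a subunit of the epithelial sodium channel (9.58 ± 0.871 and 10.8 ± 1.47 FPKM), each at an adjusted p of 0.933.

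The relatives and partners of Rasd1, 6 of 7 found, had a median log2 fold change of −0.02. Gnai3, an inhibitory G protein alpha subunit of the kind that Rasd1 acts on, was at 28.3, 28.5 and 29.1 FPKM in control and 27.99, 25.5 and 24.1 FPKM in PF model lungs (limma adjusted p = 0.933), and Gnai2, of the same family, was at 91.1 ± 4.98 and 100.5 ± 11.2 FPKM. Rasd2, the closest relative of Rasd1, was at 1.07 ± 0.595 and 1.53 ± 0.531 FPKM (SD, n = 3 each, limma adjusted p = 0.933), with overlapping groups.

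The 5 genes whose log2(FPKM + 1) followed Rasd1 most closely over the 6 libraries, among 13895 with an annotated transcript and a mean of at least 1 FPKM, were Akip1 (Pearson r = 0.992), Nfat5 (0.99), Rbpj (0.984), Fhl2 (0.982) and Clec18a (0.98). These are descriptions over 6 points that share their libraries. Nfat5, the transcription factor of the osmotic stress response, stood at 34.1, 32.5 and 33.7 FPKM in control and 27.1, 29.4 and 29.1 FPKM in PF model lungs. Rbpj, the DNA-binding partner of Notch, stood at 13.4, 13.6 and 14.5 FPKM in control and 11.1, 12.3 and 12.1 FPKM in PF model lungs.

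Circular RNAs of the members were close to absent at this depth. Of 5216 circRNAs with 2037 to 2964 back-splice reads a library, 2 came from members. A circular intronic RNA of Errfi1 had 4 reads in control replicate 3 and 2 reads in PF model replicate 3. A circRNA of 1 exon of Zbtb16 had 2 reads in control replicate 3 and 1 read in PF model replicate 3. The other 8 members had none in the table at this depth.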

How the data were processed

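The authors trimmed reads, mapped them to the rat genome (HISAT2, StringTie and TopHat stand in the submitters' processing notes), assembled transcripts with StringTie and deposited FPKM and per-base coverage (signal) per transcript, and back-splice read counts per circRNA. Versions and genome build are not given in the sources used here. From the deposited FPKM, values were summed per gene symbol and log2(FPKM + 1) was fitted with limma 3.58.1 (trend, R 4.3.3) over all genes or transcripts above 0 in at least 3 of the 6 libraries, and p-values were adjusted by Benjamini-Hochberg. The call rule was an unadjusted p of at most 0.05 with an absolute log2 ratio of mean FPKM of at least 1. Reads were estimated as coverage times length over the read length of 150 bases, because the table holds no read counts, and such estimates carry no counting interval. The fit was tested on simulated data.

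All 10 members were named, with every member transcript that was called or held at least 10% of its gene, the 3 lowest p of each pathway list that had no call, and the 5 genes most like Rasd1. One gene that this rule names is not reported here. Members and lists were chosen with earlier results of these data known. Alternatives covered the pseudocount (0.1), filters, scaling, the test, the replicate block, the sum over transcripts and leaving out each library. The sum over same-strand exonic transcripts alone was added after seeing the data. Protein sequences were not analysed here.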

Additional observations from a re-analysis of the deposited data

How the results depend on the processing

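The count of called members was 1, and it ranged from 0 to 2 when each library was left out. It was 0 with TPM scaling (Rasd1, log2 ratio just under the threshold). For the transcripts of the members the count of 3 was 0 with a library size covariate. For the pathway lists the count of 0 ranged up to 1 with a library left out (Stub1 without control replicate 2, Il1r2 without PF model replicate 1). No member passed an adjusted p below 0.05 under any alternative run. An exact permutation test on 3 against 3 libraries cannot go below 0.1, so it gives no count. Over all genes the 298 calls became 84 with a mean FPKM of at least 1, 153 with the covariate and 519 with annotated transcripts alone, and the 1934 transcript calls became 1066 and 822 with the first 2 of these.

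The sign of some differences changed, none of them called, and the cause was not tested except where the setting itself sets it. With annotated transcripts alone the log2 fold change was −0.30 for Fkbp5, −0.62 for Hsd11b1, 0.21 for Sgk1, 0.21 for Errfi1, 0.0052 for Ncor1, −1.03 for Smarca4, −0.38 for Scnn1g and −0.053 for Gnai2. With same-strand exonic transcripts it was 0.017 for Nr3c2 and 0.069 for Errfi1. With sums weighted by length it was −0.12 for Nr3c1 and −0.016 for Hsd11b1. With TPM it was 0.0069 for Nr3c2 and 0.049 for Errfi1, and 0.019 for Errfi1 with TPM without RNA families and miRNAs. With the library size covariate it was 0.047 for Sgk1, −0.15 for Hsd11b1, −0.063 for Hsd11b2, −0.033 for Smarca4 and −0.031 for Rasd2. With 1 library left out the log2 fold change ran for Nr3c1 from −0.013 to 0.43, Tsc22d3 from −0.029 to 0.43, Zbtb16 from −0.12 to 0.71, Hsd11b1 from −0.091 to 0.15 and for Hsd11b2 from −0.032 to 0.18.

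Replicate numbers are shared by the groups, but the labels do not tie them to a litter or day, and deviations of same-numbered libraries correlated at 0.06, 0.03 and −0.08 over 19645 genes, so the numbers were not treated as pairs. With the replicate block 312 genes were called, Rasd1 stayed called and the p of Fkbp5 before adjustment was above 0.05, each with a limma adjusted p = 0.924.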

Other observations

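The oligos listed for Rasd1 in the primer list of the study were letter for letter the same as those listed for IL-11, of 19 and 22 bases. Which of the 2 transcripts they match was not tested, and no qRT-PCR value was analysed here.
Rasd1-Fw: gctcacctgtggcttattt
Rasd1-Rv: gtgaggaagacactgtgaatag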
